A study of Homo sapiens with 9 samples.

Results

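The STAT transcription factors STAT2, STAT3, STAT4, STAT5A, STAT5B and STAT6 and the cytokine feedback inhibitors SOCS1, SOCS3 and CISH were followed across the 3 culture conditions of the CLL cell line MEC1. These 9 genes were taken by symbol from the table of gene counts, and all 9 of them were found among its 59050 genes. MEC1 is an established human B cell line derived from chronic lymphocytic leukemia (CLL). Its RNA was measured in 3 samples of conventional 2D culture, in 3 samples bioprinted within a scaffold of CELLINK Bioink hydrogel crosslinked with calcium chloride and harvested after 7 days (3D_7d), and in 3 bioprinted samples harvested after 14 days (3D_14d). All sample titles carry the letters PGK after MEC, which the labels do not explain, so a modified form of the line cannot be told from them. The labels otherwise name no genetic change and no treatment in any group, and no other cell type beside the single line. The labels give no time in culture for the 2D samples. Scaffolds went through TRIzol, a separate DNase I treatment and then the column kit that was used by itself for the 2D cells, so that the culture format and the RNA preparation cannot be told apart in any comparison with 2D. The labels do not say whether replicates came from separate cultures or prints, and p-values here measure the spread between these samples, which may be technical.

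Cytokines signal through receptors that carry JAK kinases. The kinases phosphorylate STAT proteins, which pair, enter the nucleus and bind palindromic sites in target genes. STAT2 joins IRF9 in the ISGF3 complex after interferon, STAT3 is activated by the IL6 and IL10 families, STAT4 by IL12, STAT5A and STAT5B by the common gamma chain cytokines, and STAT6 by IL4 and IL13. SOCS1, SOCS3 and CISH are themselves targets of STAT proteins and close the loop: SOCS1 and SOCS3 block JAK activity, and CISH blocks the docking of STAT5 on receptors. Phosphorylation decides STAT activity and was not measured in these data, which hold RNA levels only.

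The sequences upstream of SOCS1 and CISH are shown because they hold letter matches to STAT and ISGF3 motifs; whether any of them acts in MEC1 was not measured. RefSeq promoter windows of 300 bases (250 before and 50 after each start, GRCh38.p14) were found for all 9 genes and searched on both strands for TTCNNNGAA and TTCNNNNGAA, the STAT dimer sites with a spacer of 3 or 4 bases, and for GAAANNGAAA, the core of the interferon-stimulated response element bound by ISGF3. TTCNNNGAA was present in 7.66% of the 35116 promoter windows of all genes, TTCNNNNGAA in 6.44% and GAAANNGAAA in 3.57%. The CISH window held 4 matches to TTCNNNGAA, starting 241, 230, 129 and 112 bases before its start site, and the SOCS1 window held 1 match to GAAANNGAAA 113 bases before its start. The 3 sequences below are on the minus strand of GRCh38.p14 and read 5′ to 3′, with the matches in capitals. They are the 250 bases before SOCS1 (chr16:11256205-11256454), the 76 bases of the CISH window that hold its proximal pair of sites (chr3:50611832-50611907), and the 20 bases of its distal pair (chr3:50611996-50612015), which lie in an exon of the neighbouring gene MAPKAPK3.
SOCS1 upstream: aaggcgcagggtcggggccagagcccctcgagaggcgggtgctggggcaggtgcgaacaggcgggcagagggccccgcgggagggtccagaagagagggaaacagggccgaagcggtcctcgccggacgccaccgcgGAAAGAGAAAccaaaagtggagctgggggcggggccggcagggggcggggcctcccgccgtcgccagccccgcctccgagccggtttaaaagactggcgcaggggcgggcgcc
CISH proximal sites: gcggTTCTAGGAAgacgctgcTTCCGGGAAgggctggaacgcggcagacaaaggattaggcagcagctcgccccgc
CISH distal sites: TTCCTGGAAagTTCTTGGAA
STAT5A had 1 match to TTCNNNNGAA in 1 of its 3 windows. The windows of STAT2, STAT3, STAT4, STAT5B, STAT6 and SOCS3 held none of these letters, which says nothing of sites elsewhere.

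The genes are spread over 5 chromosomes (GRCh38). STAT5B (17:42199168-42276406, minus strand), STAT5A (17:42287547-42311943, plus strand) and STAT3 (17:42313324-42388568, minus strand) lie side by side, with 11.1 kb between STAT5B and STAT5A and 1.38 kb between STAT5A and STAT3. STAT2 (12:56341597-56360131) and STAT6 (12:57095408-57129100) are 735 kb apart on the minus strand. STAT4 is at 2:191029576-191151590, CISH at 3:50606496-50611831, SOCS1 at 16:11254405-11256200 and SOCS3 at 17:78356778-78360077, all on the minus strand. The strand setting of the counting is not given in the sources used here. Without it, the 8.09% of STAT4 exonic bases that a pair of antisense transcripts also covers, and the 2.87% of STAT6 exonic bases shared with LRP1 or NAB2 on the other strand, may hold reads of either gene. The same holds for 5.25 to 8.81% of the exonic bases of the related genes IL10, MX1 and IL6ST.

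The libraries held between 54662799 and 85968686 assigned counts, and 13463 genes with more than 1 CPM (the count scaled to the size of its library) in at least 3 samples were tested, all 9 genes among them. The 3D_14d samples differed from each other more than those of the other groups, and replicate 1 stood farthest from the others of its group. Mitochondrial genes took 2.30 to 2.83% of counts in 2D, 1.44 to 1.64% in 3D_7d and 1.62 to 2.82% in 3D_14d. The B cell identity of the cells was checked on MS4A1 (CD20), at 787 CPM or more in every sample. CD5, another of the listed B cell markers, stayed under 1 CPM in every sample and was not tested. Its mean was 0.362 CPM in 2D, 0.076 CPM in 3D_7d and 0.067 CPM in 3D_14d. CD22, a B cell receptor inhibitor of the same list, fell from a mean of 542 CPM in 2D to 249.6 CPM in 3D_7d and 333 CPM in 3D_14d (-1.12 and -0.71 on the log2 scale, adjusted p = 0.00074 and 0.014). Of 6 tested B cell markers 1 rose and 1 fell at day 7, and 3 rose and 1 fell at day 14. In the edgeR test MS4A1 rose by 0.86 at day 7 (adjusted p = 0.00069). CD79A rose by 1.37 and CD79B by 1.13 at day 14 (adjusted p = 0.0001 and 0.0014). The summed level of 7 B cell markers was 2172 to 2250 CPM in 2D, 2466 to 3095 CPM in 3D_7d and 3234 to 3489 CPM in 3D_14d. Of 10 T cell and NK cell markers 9 stayed under 1 CPM in the mean of every group, with CD3D at 0 in all 2D and 3D_14d samples. The summed level of these 10 was 1.41 to 2.71 CPM in 2D, 3.03 to 3.40 CPM in 3D_7d and 4.98 to 7.32 CPM in 3D_14d. The marker above 1 CPM was the NK receptor KLRD1, whose mean was 0.553 CPM in 2D, where CD3E stood higher at 0.765 CPM, and which rose to 2.31 CPM in 3D_7d and 4.71 CPM in 3D_14d (2.04 and 3.07 on the log2 scale, adjusted p = 0.0011 and 0.00013). The 6 monocyte markers summed to 1.52 to 2.14, 1.11 to 2.48 and 3.81 to 5.28 CPM, and the 6 stromal markers to 10.3 to 11.5, 2.36 to 5.33 and 2.68 to 8.91 CPM in the same order. The part of these markers in the results was not tested. In bulk RNA, fewer cells that express a gene and less of its RNA per cell cannot be told apart.

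The question of the design was which genes differ between 2D and 3D culture, and between the 2 times in 3D. Differences were tested with edgeR's quasi-likelihood test on all 9 samples, with p-values adjusted by Benjamini-Hochberg over all 13463 genes and a call at an adjusted p of at most 0.05. Both comparisons with 2D use the same 2D samples. At day 7, 2 of the 9 genes were up-regulated (STAT3 and STAT6) and 1 was down-regulated (SOCS3), where 43.4% of all tested genes were called (22.2% up and 21.2% down). At day 14, 3 were up-regulated (SOCS1, STAT6 and STAT3) and 1 was down-regulated (SOCS3), where 36.2% of all genes were called (19.0% up and 17.2% down). Between day 7 and day 14 only SOCS1 was called, and it was higher at day 14, where 28.1% of all genes were called (14.5% up and 13.6% down). The share called was below the background at day 7 and between the days and near it at day 14, so these counts do not set the 9 genes apart from other genes. The median log2 fold change of the 9 genes was 0.11 at day 7, 0.068 at day 14 and -0.19 between the days, and that of all tested genes was -0.0039, 0.023 and -0.0012.

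**Figure D1:**
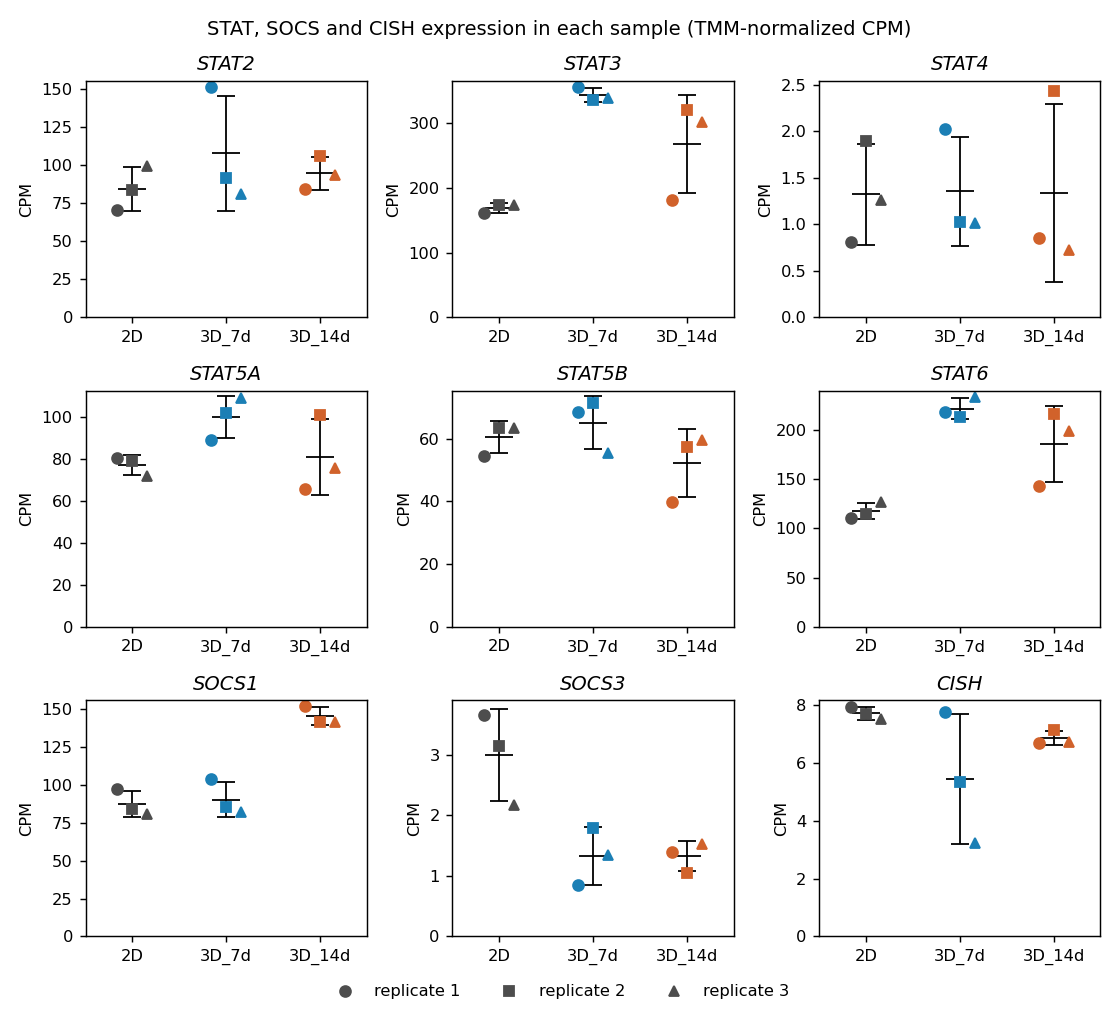
Level of each of the 9 genes in every sample, in CPM after TMM scaling, by culture group; points are samples, shaped by replicate number, and bars are the mean ± SD of 3 samples. STAT3 and STAT6 sit higher in all 3D samples than in all 2D samples, SOCS1 only at day 14, and SOCS3 lies below its 2D values in all 3D samples.

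STAT3, the factor downstream of IL6 and IL10, had the largest difference from 2D of the 6 STAT genes. Its level was 160.4, 173 and 173 CPM in the 2D samples, 356, 335 and 339 CPM in 3D_7d and 181, 321 and 302 CPM in 3D_14d. All 3D samples lay above all 2D samples, but 3D_14d replicate 1 exceeded the highest 2D sample by little. The mean went from 169 ± 7.33 CPM (SD, n = 3) in 2D to 343 ± 10.7 in 3D_7d and 268 ± 75.8 in 3D_14d. The edgeR test gave a log2 fold change of 1.02 (SE 0.19, adjusted p = 0.00092), or 2.03-fold, at day 7, and of 0.67 (SE 0.19, adjusted p = 0.014), or 1.59-fold, at day 14. The day 7 call held in all 16 alternative settings. The day 14 call did not hold without 2D replicate 1 (0.60, adjusted p = 0.061), 2D replicate 2 (0.65, adjusted p = 0.052) or 2D replicate 3 (0.64, adjusted p = 0.052), nor when libraries were scaled by total counts alone (0.48, adjusted p = 0.091), and without 3D_14d replicate 1 it was 0.89 (adjusted p = 6.8e-05). The 3D_14d samples did not exceed 321 CPM and the 3D_7d samples did not go below 335 CPM, yet the difference of -0.36 between the days missed the threshold (95% interval -0.76 to 0.045, adjusted p = 0.17).

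STAT6, the factor of IL4 and IL13 signalling, followed the same order of groups. Its level was 111, 115 and 126 CPM in 2D, 219, 213 and 234 CPM in 3D_7d and 143, 217 and 199 CPM in 3D_14d. No 3D sample reached down to the 2D values, and 3D_14d replicate 1 was again the lowest of the 3D samples. The means were 117 ± 7.95 CPM in 2D, 222 ± 10.7 in 3D_7d and 186 ± 38.5 in 3D_14d (SD, n = 3). STAT6 was up-regulated by 0.92 on the log2 scale at day 7 (SE 0.16, adjusted p = 0.0007) and by 0.66 at day 14 (SE 0.16, adjusted p = 0.0064). Total counts alone ended the day 14 call (0.47, adjusted p = 0.055), and without 3D_14d replicate 1 the difference was 0.83 (adjusted p = 0.00016). Between the days STAT6 differed by -0.25 (95% interval -0.60 to 0.091, adjusted p = 0.25).

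STAT5A and STAT5B, near-identical paralogs that relay IL2, IL7 and related cytokines, passed no test in edgeR on all 9 samples. The level of STAT5A was 80.3, 79.0 and 71.6 CPM in 2D, 89.1, 102 and 109 CPM in 3D_7d and 65.7, 101 and 75.8 CPM in 3D_14d. The 3D_7d samples lay above all 2D samples and the 3D_14d samples spanned them. The difference of STAT5A from 2D at day 7 was 0.38 (95% interval 0.018 to 0.74, adjusted p = 0.083), and that at day 14 was 0.068 (-0.29 to 0.43, adjusted p = 0.78). The day 7 difference passed the threshold in a fit of the 6 samples of that comparison (0.36, adjusted p = 0.014), without 3D_14d replicate 1 (0.36, adjusted p = 0.030) and without 3D_14d replicate 2 (0.38, adjusted p = 0.031). Without 3D_14d replicate 2, STAT5A was also lower at day 14 than at day 7 (-0.50, adjusted p = 0.023, against -0.31 and adjusted p = 0.18 with it).

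STAT5B was at 54.5, 63.4 and 63.3 CPM in 2D, 68.4, 71.4 and 55.5 CPM in 3D_7d and 39.6, 57.3 and 59.6 CPM in 3D_14d. The groups overlapped in all 3 comparisons. Its difference from 2D was 0.11 at day 7 (95% interval -0.27 to 0.49, adjusted p = 0.65) and -0.21 at day 14 (-0.59 to 0.17, adjusted p = 0.37). How the counting treated reads that map to both paralogs is not given in the sources used here, so their split is uncertain. With the counts of both summed, the day 7 difference was 0.26 with an adjusted p of 0.18, and the day 14 difference was -0.048 with an adjusted p of 0.83.

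STAT2, the STAT of the interferon-activated ISGF3 complex, was measured at 70.5, 83.3 and 99.4 CPM in 2D, 151, 91.1 and 80.8 CPM in 3D_7d and 84.3, 106 and 93.5 CPM in 3D_14d. One library, 3D_7d replicate 1, was far above the rest, and the groups overlapped in every comparison. The difference from 2D was 0.35 at day 7 (95% interval -0.12 to 0.83, adjusted p = 0.21) and 0.16 at day 14 (-0.31 to 0.64, adjusted p = 0.59). Without 3D_7d replicate 1 the day 7 difference was 0.0057 (adjusted p = 0.98).

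STAT4, the IL12 factor of T cells and NK cells, was the lowest of the STAT genes, with 40 to 175 counts per library. It was at 0.808, 1.89 and 1.26 CPM in 2D, 2.02, 1.02 and 1.01 CPM in 3D_7d and 0.852, 2.43 and 0.719 CPM in 3D_14d. All 3 groups covered the same range, and the differences from 2D of 0.030 and 0.010 had intervals from -1.12 to 1.18 and from -1.14 to 1.16. With this spread between samples, the intervals do not exclude a difference of about 2-fold in either direction for STAT4.

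**Figure D2:**
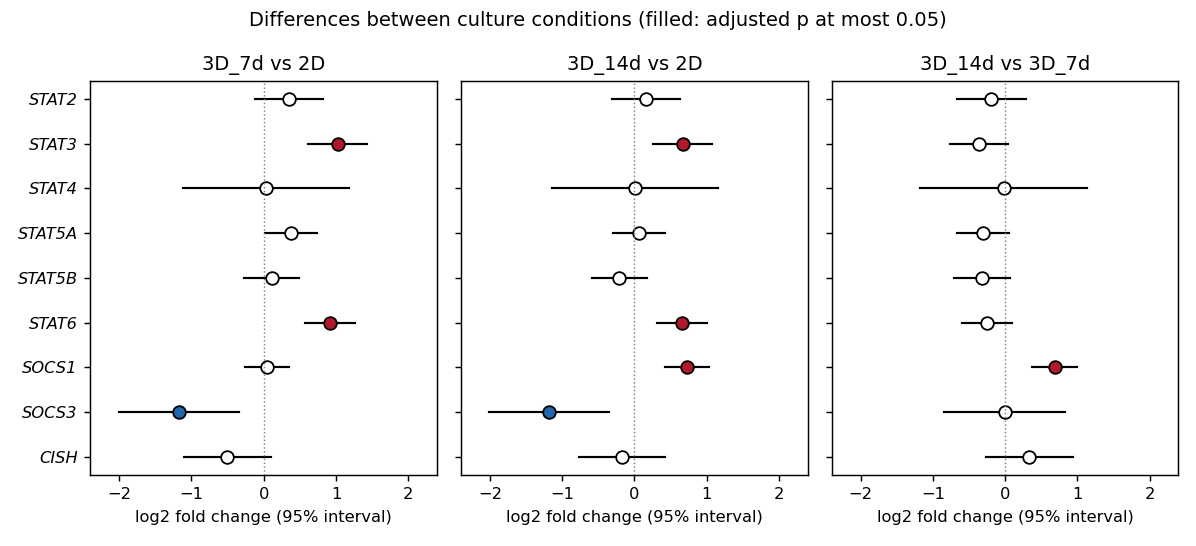
Log2 fold change of each gene (points) with its 95% interval (lines) in the 3 comparisons of edgeR's quasi-likelihood test; filled points have an adjusted p of at most 0.05, red higher and blue lower in the first-named group. STAT3 and STAT6 are filled in both comparisons with 2D, SOCS1 at day 14 and between the days, and the intervals of SOCS3 and STAT4 are the widest.

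SOCS1, which binds and blocks JAK1, JAK2 and TYK2, was the inhibitor with the highest level. In the edgeR test on all 9 samples it was the only one of the 9 genes called between day 7 and day 14. Its level was 97.5, 84.0 and 81.0 CPM in 2D, 104, 85.1 and 82.1 CPM in 3D_7d and 152, 142 and 142 CPM in 3D_14d. The 2D and 3D_7d samples overlapped, and every 3D_14d sample lay above all 6 of them. The means were 87.5 ± 8.82, 90.4 ± 11.9 and 145 ± 5.96 CPM (SD, n = 3). SOCS1 differed from 2D by 0.047 at day 7 (95% interval -0.26 to 0.35, adjusted p = 0.81) and by 0.73 at day 14 (SE 0.14, adjusted p = 0.0018, 1.66-fold). The difference between the days was 0.68 (SE 0.14, adjusted p = 0.0045, 1.61-fold) and used scaffolds that shared the RNA preparation. Both calls held in all 16 alternative settings, with log2 fold changes from 0.53 to 0.79 against 2D and from 0.63 to 0.80 between the days. The highest sample for SOCS1, 3D_14d replicate 1, was the lowest 3D sample for STAT3 and STAT6. It was also the library farthest from the others of its group, and a link between the levels of these genes was not tested.

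SOCS3, the inhibitor of IL6 family receptors, was weakly expressed in every group. It was at 3.66, 3.15 and 2.17 CPM in 2D (165 to 292 counts), 0.848, 1.79 and 1.35 CPM in 3D_7d (49 to 98 counts) and 1.39, 1.05 and 1.53 CPM in 3D_14d (55 to 85 counts). All 6 samples in 3D lay below the lowest 2D sample. The mean fell from 2.99 ± 0.758 CPM in 2D to 1.33 ± 0.471 in 3D_7d and 1.32 ± 0.248 in 3D_14d (SD, n = 3). SOCS3 was down-regulated at both times, with a log2 fold change of -1.17 (SE 0.38, adjusted p = 0.026) for day 7 and of -1.18 (SE 0.38, adjusted p = 0.030) for day 14. The day 7 call was lost without 2D replicate 1 (-1.04, adjusted p = 0.096), 2D replicate 2 (-1.18, adjusted p = 0.069), 3D_7d replicate 1 (-0.95, adjusted p = 0.076) or 3D_7d replicate 3 (-1.22, adjusted p = 0.061). The day 14 call was lost without 2D replicate 1 (-1.03, adjusted p = 0.11), 2D replicate 2 (-1.17, adjusted p = 0.083) or 3D_14d replicate 2 (-1.03, adjusted p = 0.074), and both calls were lost when no gene was filtered out (adjusted p = 0.075 and 0.056). With the replicate number as a block the day 14 call was also lost (-1.16, adjusted p = 0.052). Every alternative kept the difference below 0. Values ran between -1.48 and -0.95 for day 7 and between -1.40 and -1.03 for day 14.

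CISH, the inhibitor of STAT5 docking whose upstream sites are printed above, was even in 2D and uneven at day 7. It was at 7.93, 7.71 and 7.51 CPM in 2D, 7.75, 5.35 and 3.23 CPM in 3D_7d and 6.71, 7.15 and 6.73 CPM in 3D_14d. The 3D_7d samples ran from the 2D level to below 50% of it, and the 3D_14d samples lay just under all 2D samples. The difference from 2D was -0.50 at day 7 (95% interval -1.10 to 0.099, adjusted p = 0.16) and -0.17 at day 14 (-0.77 to 0.43, adjusted p = 0.66). Without 3D_7d replicate 1 the day 7 difference was -0.87 and passed the threshold (adjusted p = 0.022). Between the days CISH differed by 0.33 (-0.27 to 0.94, adjusted p = 0.39).

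Counting samples rather than tests, 4 of the 9 genes had groups that did not overlap between 2D and 3D_7d (STAT3, STAT5A, STAT6 and SOCS3), where 64.6% of all tested genes did not overlap. Between 2D and 3D_14d it was 5 of 9 (STAT3, STAT6, SOCS1, SOCS3 and CISH) against 49.7% of all genes, and between the days 2 of 9 (STAT3 and SOCS1) against 39.3%.

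The spread between replicates differed from gene to gene. The coefficient of variation of the CPM was 2.75% for CISH and 41.1% for STAT4 in 2D, the lowest and highest of the 9 genes there. In 3D_7d it ran from 3.12% for STAT3 to 43.1% for STAT4, and in 3D_14d from 3.67% for CISH to 71.5% for STAT4. STAT3, STAT5A, STAT5B and STAT6 varied by 20.7 to 28.3% in 3D_14d, more than each did in the other groups, while SOCS1 varied by 4.10%. Replicate 1 of 3D_14d held the lowest value of its group for 5 of the 6 STAT genes, all but STAT4, and the highest for SOCS1.

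**Figure D3:**
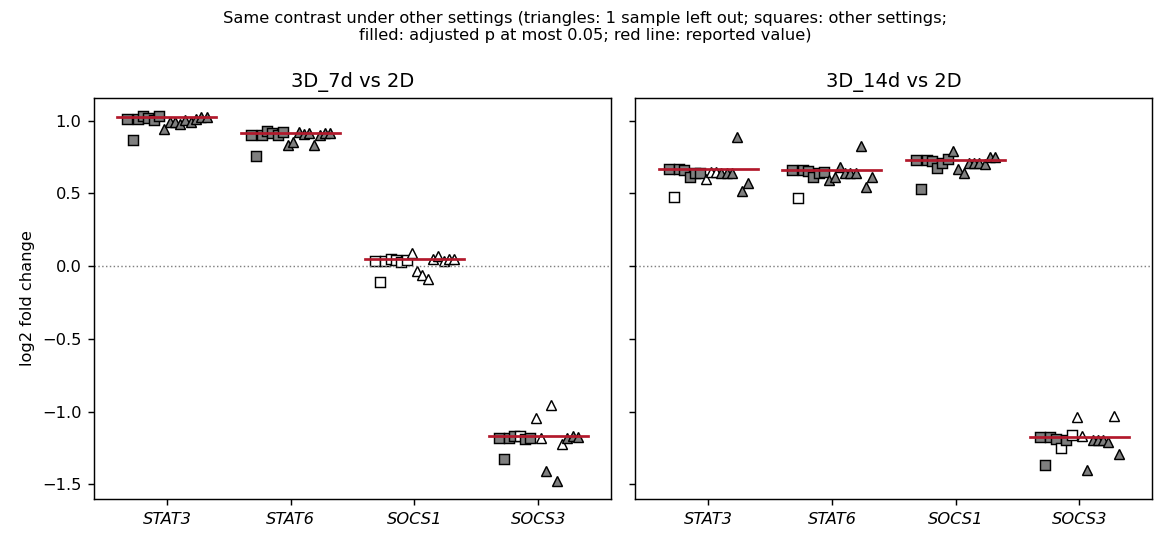
Log2 fold change of STAT3, STAT6, SOCS1 and SOCS3 against 2D under each alternative (triangles leave out 1 sample, squares change another setting), with the reported value as a red line; filled symbols have an adjusted p of at most 0.05. The day 7 values of STAT3 and STAT6 and the day 14 values of SOCS1 are filled throughout, while those of SOCS3 are open for 5 of 16 settings in each comparison.

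To compare the genes with each other, levels were taken per length as RPKM (CPM per kilobase of the gene's exons). In 2D the order of the mean levels was SOCS1 (48.7 RPKM), STAT3 (33.5), STAT6 (26.3), STAT2 (19.1), STAT5A (16.2), STAT5B (11.8), CISH (3.47), SOCS3 (1.10) and STAT4 (0.409). Among neighbours in that order only STAT2 and STAT5A overlapped between samples. At day 7 STAT3 stood first at 68.0 RPKM, ahead of SOCS1 (50.3) and STAT6 (49.7), whose samples overlapped. At day 14 SOCS1 was again first at 80.9 RPKM, and STAT3 (53.1) and STAT6 (41.7) overlapped behind it. The rest of the order was kept in all groups, with STAT2 and STAT5A overlapping in each group and SOCS3 and STAT4 overlapping at both days in 3D. The RPKM of SOCS1 was 40.6 to 56.8 times that of SOCS3 in 2D, 72.4 to 187 times in 3D_7d and 141 to 206 times in 3D_14d. Over CISH the ratio was 13.4 to 15.2, 16.6 to 31.5 and 24.6 to 28.1 in the same order, so that the balance of the 3 inhibitors lay further toward SOCS1 in every 3D sample than in any 2D sample. Such ratios within a sample do not depend on how libraries are scaled.

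The makeup of the STAT transcripts differed in the same way. Of the summed RPKM of the 6 STAT genes, STAT3 made up 30.4 to 31.7% in 2D, 37.8 to 39.1% in 3D_7d and 33.0 to 39.0% in 3D_14d. STAT6 made up 23.8 to 25.1%, 26.3 to 30.5% and 28.7 to 29.4%, and both together 55.4 to 56.4%, 64.1 to 69.6% and 62.4 to 68.1%. The share of STAT5B was 10.6 to 11.5% in 2D, 6.33 to 8.21% in 3D_7d and 6.64 to 7.63% in 3D_14d. It did not overlap between 2D and 3D. Shares are parts of a fixed whole, so a share can fall while the level of its gene does not. In CPM, STAT5B overlapped between the groups and was not called (0.11 at day 7 and -0.21 at day 14 on the log2 scale). Mean shares of STAT5A were 15.1% in 2D, 11.96% in 3D_7d and 11.85% in 3D_14d. The uncertain split of reads between STAT5A and STAT5B also affects these shares and the ratios to STAT5B. Shares of STAT2 (10.6 to 19.9%) and STAT4 (0.145 to 0.540%) overlapped across the groups. The ratio of STAT3 to STAT5B in RPKM was 2.76 to 2.97 in 2D, 4.75 to 6.17 in 3D_7d and 4.62 to 5.66 in 3D_14d, and that of STAT6 to STAT5B 2.07 to 2.33, 3.41 to 4.81 and 3.81 to 4.32. The ratio of STAT3 to STAT6 overlapped between all groups (1.21 to 1.33, 1.28 to 1.44 and 1.12 to 1.34). For these ratios an exact two-sided permutation test of 3 against 3 samples cannot give a p below 0.1, and none was run.

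**Figure D4:**
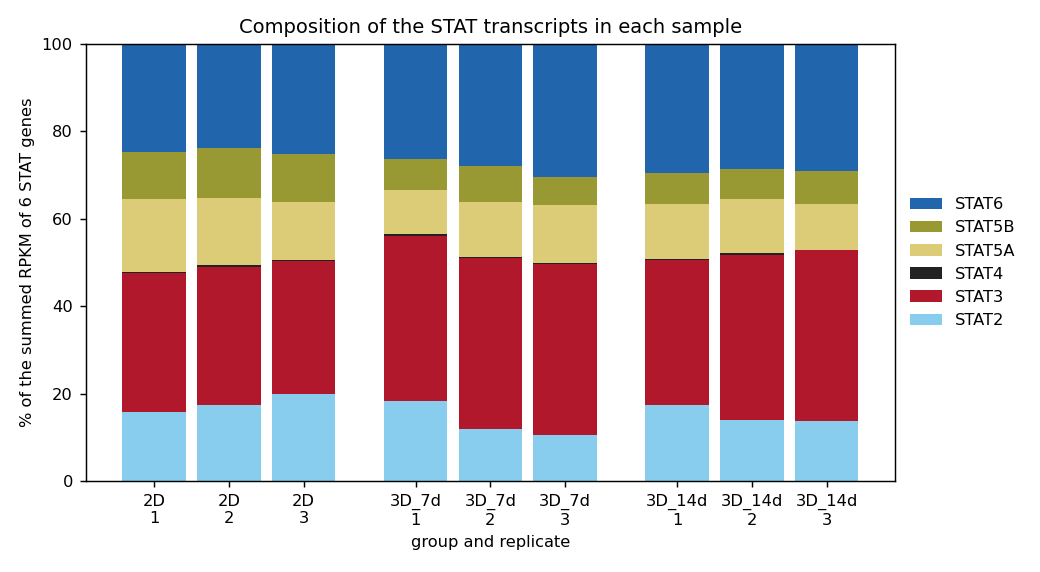
Share of each STAT gene in the summed RPKM of the 6 STAT genes, in percent, as 1 stacked bar per sample. STAT3 and STAT6 together take 55.4 to 56.4% of the bar in 2D and 62.4 to 69.6% in 3D, and STAT4 is barely visible.

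Among the relatives of these genes, 5 further SOCS genes (SOCS2, SOCS4, SOCS5, SOCS6 and SOCS7) were tested and none was called against 2D at either time by edgeR's quasi-likelihood test. Their median log2 fold change was 0.29 at day 7 and 0.31 at day 14. At an unadjusted p under 0.05 there were 2 at day 7 and 1 at day 14, and the DESeq2 Wald test called 1 at day 7, SOCS2, and 0 at day 14. SOCS2, named after its values were seen, was near the limit of detection, at means of 0.567, 1.48 and 1.43 CPM in 2D, 3D_7d and 3D_14d. Of the 4 JAK kinases, which phosphorylate the STAT proteins, 3 were up-regulated at day 7 and 1 at day 14, and their median log2 fold change was 0.89 and 0.67. JAK1, the kinase shared by most of these receptors, went from 169.6 to 187 CPM in 2D to 465 to 498 CPM in 3D_7d and 273 to 457 CPM in 3D_14d, a log2 fold change of 1.44 and 1.07 (adjusted p = 6e-05 and 0.00057). JAK3 rose by 0.91 at day 7 (adjusted p = 0.0043) and differed by 0.57 at day 14 (adjusted p = 0.052). TYK2 rose by 0.88 at day 7 (adjusted p = 0.0022) and fell by 0.72 from day 7 to day 14 (adjusted p = 0.012). JAK2, named after its values were seen, was not called (0.59 and 0.78, adjusted p = 0.15 and 0.075). Over all tested genes 43.4% were called at day 7 and 36.2% at day 14, which is the background for the counts of this and the other lists. No list was tested as a set.

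Upstream of the STAT genes, 9 of 25 listed cytokine ligands and 20 of 30 receptors were expressed enough to be tested. Ligands were up-regulated in 2 and down-regulated in 2 cases at day 7, and in 4 and 3 cases at day 14. IL10, an activator of STAT3, was at 6.64 to 7.85 CPM in 2D, 16.4 to 24.2 CPM in 3D_7d and 27.8 to 47.2 CPM in 3D_14d, and was up-regulated by 1.58 and 2.35 on the log2 scale (adjusted p = 0.00017 and 2.1e-05). IL4, the activator of STAT6, differed by 0.18 at day 7 (adjusted p = 0.67) and rose by 1.72 at day 14 (adjusted p = 0.0012), from at most 2.70 CPM to 5.31 to 11.4 CPM. EBI3, a subunit of IL27 and IL35, fell by 0.77 and by 0.88 (adjusted p = 0.00076 and 0.00044). Among receptors 7 rose and 5 fell at day 7, and 6 rose and 5 fell at day 14. IL12RB1, a chain of the IL12 and IL23 receptors, rose by 1.64 and 1.58. IL7R fell by 1.59 and by 1.84, and IFNGR2, a chain of the interferon gamma receptor, fell by 1.35 and by 0.58. The call of IFNGR2 at day 14 was lost without 2D replicate 1, 2D replicate 2 or 3D_14d replicate 3, at log2 fold changes from -0.57 to -0.50. IL6ST, the signalling chain for IL6 and the receptor chain that SOCS3 binds, fell by 1.19 at day 7 (adjusted p = 0.0021) and by 0.68 at day 14 (adjusted p = 0.046), where the call was lost in 6 of 9 fits that left out 1 sample. IL4R, named after its values were seen, differed by -0.30 and -0.21 (adjusted p = 0.18 and 0.37).

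Of 11 other inhibitors of the pathway, phosphatases and PIAS proteins among them, 4 rose and 2 fell at day 7, and 3 rose and 3 fell at day 14. PTPN6 (SHP-1), a phosphatase that acts on JAK kinases, went from 972 to 1080.4 CPM in 2D to 1934 to 2096 CPM in 3D_7d and 1766 to 2501 CPM in 3D_14d (0.97 and 1.06 on the log2 scale, adjusted p = 0.00028 and 0.00023). PIAS4 rose by 1.12 and 1.21. PTPN2, a phosphatase of nuclear STAT proteins, fell by 0.52 at day 7 and by 0.36 at day 14, where the call was lost without any 1 of the 2D replicates.

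**Figure D5:**
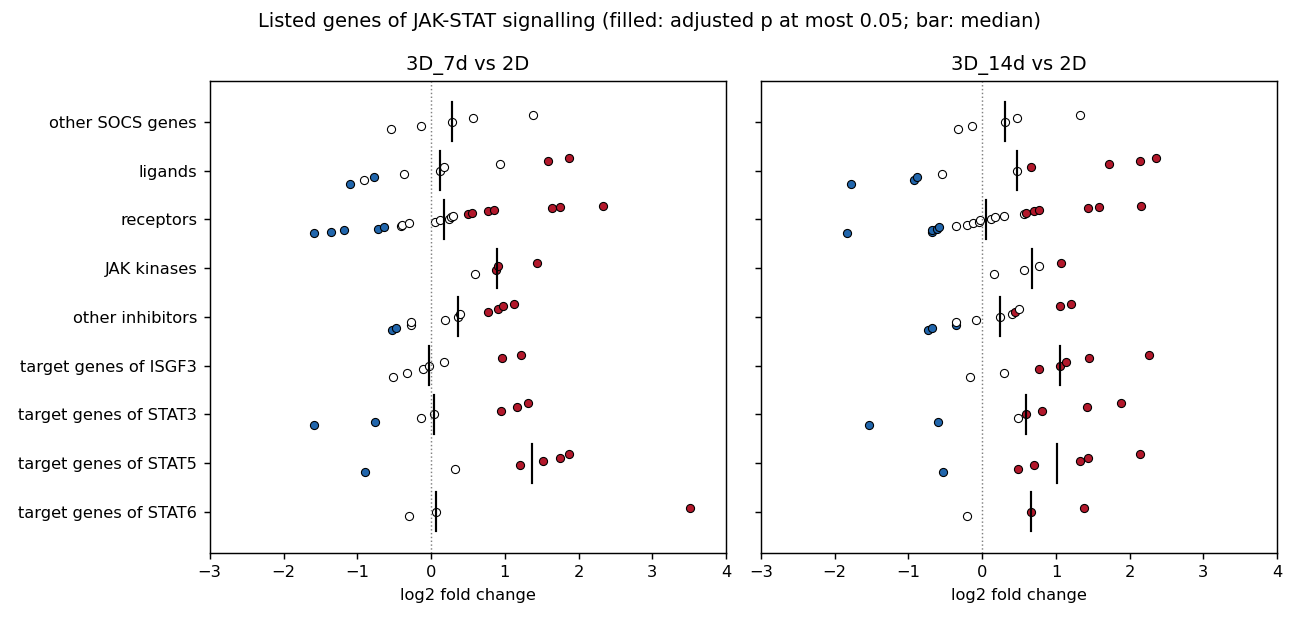
Log2 fold change against 2D at day 7 and day 14 for the tested genes of each pathway list (1 point a gene, bar at the list's median); filled points have an adjusted p of at most 0.05, red higher and blue lower in 3D. The called JAK kinases all lie to the right of 0, and ligands, receptors and other inhibitors spread to both sides.

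Target genes were listed from general knowledge of each factor, with earlier results of these data known, and are not specific to it. The target lists share genes with other lists, so their counts are not separate. IL2RA and IL4R are also counted with the receptors, OSM with the ligands and FCER2 with the B cell markers. Of 3 tested STAT6 targets 1 was up-regulated at day 7 and 2 at day 14. CCL22, a chemokine that attracts T cells, rose by 3.51 at day 7 and by 1.38 at day 14, and fell by 2.14 from day 7 to day 14 (adjusted p = 0.00037). FCER2 (CD23) differed by 0.069 at day 7 (adjusted p = 0.75) and rose by 0.67 at day 14 (adjusted p = 0.0063). The median of the 3 was 0.069 at day 7, which changed sign to -0.084 when libraries were scaled by total counts alone, to -0.039 without 2D replicate 3 and to -0.15 without 3D_7d replicate 1. It was 0.67 at day 14.

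Of 7 STAT3 targets 3 rose and 2 fell at day 7, and 4 rose and 2 fell at day 14. PRDM1 rose by 1.32 at day 7 and by 0.60 at day 14 (edgeR, adjusted p = 0.00051 and 0.047). At day 14 its samples overlapped those of 2D, and the call was lost in 8 of 9 fits that left out 1 sample. MCL1, an inhibitor of apoptosis, rose by 1.17 and 0.82, and TIMP1, an inhibitor of matrix proteases, by 0.95 and 1.88. The immediate early genes FOS and JUNB fell, FOS by 1.59 and by 1.53 and JUNB by 0.76 and by 0.60. The list's median was 0.040 at day 7, which changed sign to -0.12 when libraries were scaled by total counts alone, and 0.60 at day 14. Of 6 STAT5 targets 4 rose and 1 fell at day 7, and 5 rose and 1 fell at day 14, with medians of 1.37 and 1.01. Among those that rose was OSM, also counted with the ligands, at a mean of 0.502 CPM in 2D. Its call was lost in 3 of 9 fits that left out 1 sample at day 7 and in 2 of 9 at day 14. The day 14 call of CCND2 was lost in 6 of 9 such fits. BCL2L1, another inhibitor of apoptosis, rose by 1.52 and 1.32, but 42.2% of its exonic bases are shared with ABALON on the other strand and may hold reads of either gene. PIM1, a kinase, fell by 0.90 and by 0.53.

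Of 7 tested ISGF3 targets, interferon-stimulated genes downstream of STAT2, 2 were up-regulated at day 7 and 5 at day 14, and the list's median went from -0.032 to 1.06. MX1 rose by 0.96 and 1.13. IFIT1 rose by 1.22 at day 7 and by 2.26 at day 14. Its level in 3D_7d was 25.8 to 97.7 CPM, and without 3D_7d replicate 1, the library in which STAT2 was highest, the day 7 difference was 0.55 and not called (adjusted p = 0.058). IRF7 was at 218 to 361 CPM in 3D_7d and 545 to 639 CPM in 3D_14d against 265 to 299.6 CPM in 2D, a difference of -0.032 for day 7 (adjusted p = 0.90) and of 1.06 for day 14 (adjusted p = 0.00071). Between the days IRF7 rose by 1.09 (adjusted p = 0.0012).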

How the data were processed

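RNA was measured in 9 samples of MEC1, 3 in each of the groups 2D, 3D_7d and 3D_14d, which were assigned from the sample labels. The authors made libraries from total RNA with SMART-Seq v4 and read them as single ends. Trimmomatic 0.39 was used for trimming, STAR 2.5.3a for alignment to GRCh38 and featureCounts 1.6.4 for assignment to genes. The deposited values are raw counts per gene symbol without normalization, 1 column per sample, together with the length of each gene's exons in bases. The read-to-gene strand setting and the handling of reads that map more than once are not given in the sources used here. Reads lost or split between near-identical genes would change the levels of STAT5A and STAT5B.

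From these counts, genes with more than 1 CPM in at least 3 samples were kept (13463 of 59050) and fitted in 1 edgeR model (edgeR 4.0.16, R 4.3.3) with 3 group means, TMM factors and the quasi-likelihood test. Adjusted p-values are Benjamini-Hochberg values over all tested genes, SE is the absolute log2 fold change divided by the square root of its F statistic, and intervals are 95% intervals. CPM uses TMM-scaled library sizes, and RPKM is CPM per kilobase of the deposited length. Totals were 54662799 to 85968686 counts per sample, STAT4 and SOCS3 had 40 to 292 counts, and the precision of a fold change rests on the 3 replicates. The model was tested on simulated counts of 3D_7d against 2D. It recovered 3 of 66 changed genes at an absolute log2 fold change of 0.5, 35 of 63 at 1 and 61 of 65 at 2. In that setting 13129 genes were tested and few of them were changed, while 43.4% of genes were called at day 7 in the data. Recovery at such a share of calls was not tested. A gene that was not called may still differ by an amount of the smaller sizes. Alternatives were DESeq2 (1.42.0) size factors and Wald test, total counts alone, edgeR's filterByExpr, no filter, the 6 samples of each comparison, the replicate number as a block, leaving out each sample, and STAT5A and STAT5B summed. Promoter windows and their sequences are from RefSeq (GRCh38.p14), and gene positions from the GENCODE annotation of GRCh38.

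The 9 genes and all gene lists were chosen with earlier results of these data known. Named from each other list were at most 3 genes per direction with the smallest p against 2D among those called, plus MS4A1. The 3 of the 9 genes with the widest range of group means were also compared with all other genes by Pearson correlation. OAS1, a listed ISGF3 target, was not analysed here, and 3 other listed genes are not reported.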

Additional observations from a re-analysis of the deposited data

Results flagged for a closer look

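SOCS1 differed between the 2 times in 3D culture, by a test of that difference itself. Its difference from 2D was 0.047 on the log2 scale at day 7 and 0.73 at day 14, and the edgeR contrast of day 14 against day 7 gave 0.68 (SE 0.14, adjusted p = 0.0045). It was higher in 3 of 3 samples at day 14 than in any of the 3 samples at day 7. Of the 9 genes it was the only one called in this contrast, in which 28.1% of all tested genes were called. With each sample left out in turn the difference between the days ran from 0.64 to 0.80. No outlier statistic was computed for groups of 3 samples.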

How the results depend on the processing

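STAT3 and STAT6 at day 7 and SOCS1 at day 14 and between the days kept direction and call in each of 16 alternatives. The changes of call of STAT3, STAT5A, STAT6, SOCS3 and CISH are given with those genes, and their causes were not tested. The number of the 9 genes that were down-regulated was 0 in place of 1 at day 7 with no filter, and 0 in place of 1 at day 14 with no filter and with the replicate block (SOCS3, -1.16, adjusted p = 0.052). With 1 sample left out it ranged from 0 to 1 in each of the 3 comparisons. With total counts alone 1 in place of 3 was up-regulated at day 14. All genes called ranged from 3204 to 5308 at day 14 and from 2291 to 4328 between the days with 1 sample left out, and between the days they numbered 2453 when only the 6 samples of that comparison were fitted.

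Total counts alone moved the median of all genes by -0.16 at day 7 and -0.21 at day 14, and the share of calls that were up from 51.1 to 37.6% and from 52.5 to 33.0%. Genes not called changed sign. At day 7 total counts alone gave -0.12 for STAT4, -0.050 for STAT5B and -0.11 for SOCS1, and ranges with 1 sample left out were -0.40 to 0.33, -0.0028 to 0.17 and -0.088 to 0.089. At day 14 total counts alone gave -0.043 for STAT2, -0.21 for STAT4 and -0.13 for STAT5A. STAT4 was also -0.012 with no filter, -0.019 with 6 samples, -0.10 with the replicate block and -0.75 to 0.32 with 1 sample left out. STAT5A was -0.048 summed with STAT5B and -0.12 to 0.20 with 1 sample left out. Between the days SOCS3 was 0.0026 with DESeq2 size factors, 0.0030 with the Wald test, 0.0050 with 6 samples, 0.015 with the block and -0.24 to 0.28 with 1 sample left out, STAT2 -0.33 to 0.14 and STAT4 -0.78 to 0.39. Medians of ligands at day 7 (-0.035) and receptors at day 14 (-0.16) also changed sign with total counts alone.

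Deviations of same-numbered samples correlated at -0.10 to 0.19, over 0.1 in 2 of 9 pairs. Those of other pairs correlated at -0.13 to 0.081, over 0.1 in 0 of 18 pairs. The highest values were those of same-numbered 2D and 3D_14d samples (0.19, 0.11 and 0.093), so whether the replicate numbers pair samples is not settled. As a block the numbers changed no other call of the 9 genes. STAT4 and SOCS3 had the fewest counts of the 9 genes, and each group held 3 samples.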

Other observations

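The levels of SOCS3, STAT3 and STAT6, the 3 of the 9 genes with the widest range of group means, were compared with those of 13376 other genes over the 9 samples, by Pearson's r of log2 CPM. The genes most like SOCS3 were TATDN1 (r = 0.968), CMBL (0.961) and UTP23 (0.948), all lower in the mean of both 3D groups than in 2D. Those most like STAT3 were AC006111.2 (0.993), TRAPPC9 (0.991) and DIPK2A (0.990), and those most like STAT6 were SLC46A3 (0.998), AC006111.2 (0.991) and ARHGAP31 (0.988). SLC46A3 went from 10.9 CPM in 2D to 34.3 in 3D_7d and 24.6 in 3D_14d, and ARHGAP31 from 10.1 to 45.7 and 34.4 CPM. AC006111.2, which was near both STAT3 and STAT6, had means of 1.47, 6.04 and 3.83 CPM. These are descriptions of 9 samples in 3 groups, in which any gene with the same order of groups scores high.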
